A study of Mus musculus with 12 samples.

Results

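Esrp1, Esrp2, Grhl1, Grhl2, Ovol1, Ovol2, Elf3, Ehf and Klf5 are 9 factors of the epithelial gene programme, and their messenger RNA was followed in mammary tumour organoids after knockdown of Cldn7, which encodes the tight junction protein claudin 7. The genes were taken by symbol from the count table. They are 9 of its 25861 genes, and all 9 were among the 17025 genes with enough counts to be tested. Of the 9, Ehf passed the test against the control with hairpin 2 and not with hairpin 1. Its difference exceeded the spread within replicate numbers, while the ranges of the hairpin 2 and control libraries overlapped.

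The organoids were freshly isolated from primary mammary tumours of MMTV-Neu mice. Their Neu (Erbb2) transgene is expressed from the MMTV promoter, which is active mainly in mammary epithelium. One group carried the short hairpin RNA sh1Cldn7 (hairpin 1) and a second group carried sh2Cldn7 (hairpin 2), both against Cldn7, while shControl organoids, labelled WT, carried a non-targeting hairpin (the control). All 3 groups were infected with lentivirus at a multiplicity of infection of 20, selected in puromycin at 3 µg/ml for 3 days, fed with medium holding 2.5 nM FGF2 and kept in collagen I for 5 days. Each group held 4 libraries, numbered 1 to 4. The labels give no age or background strain of the mice and leave unsaid whether the replicates were separate animals or cultures. The p-values therefore reflect the spread between the libraries at hand, and that spread may be technical.

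These factors act at several levels of epithelial identity. The Esrp proteins bind RNA and choose epithelial exons in transcripts such as those of Fgfr2, Cd44 and Ctnnd1. Grainyhead-like (Grhl) and Ovo-like (Ovol) proteins, the Ets factors Elf3 and Ehf, and the Krüppel-like factor Klf5 bind DNA. Grhl2 is known in mouse epithelia to sustain genes of cell junctions such as Cdh1, Epcam and Cldn4, and Ovol2 is known in mouse mammary epithelium to repress Zeb1 and other genes of epithelial-mesenchymal transition. Loss of several of them accompanies a mesenchymal change of epithelial cells, and in mammary tumours they are used as markers of the epithelial state.

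Most of the 9 genes have a close relative within the group, so the coding sequences of the 4 related pairs were compared (GENCODE M21, GRCm38). The longest identical stretch of each pair is shown in capitals, with 12 bases of coding sequence on either side, because a read must extend past this stretch to be assigned to 1 gene of the pair. The stretch of the Esrp pair was 35 bases long and crosses an intron in both genes.
Esrp1: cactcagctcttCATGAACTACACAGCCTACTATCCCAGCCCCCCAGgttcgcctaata
Esrp2: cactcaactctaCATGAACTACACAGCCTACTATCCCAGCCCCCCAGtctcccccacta
The stretch of the Grhl pair was 29 bases long and also crosses an intron in both genes.
Grhl1: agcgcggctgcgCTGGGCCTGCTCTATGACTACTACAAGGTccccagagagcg
Grhl2: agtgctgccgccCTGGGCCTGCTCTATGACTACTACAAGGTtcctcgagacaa
The Ovol genes shared 20 bases, at chr19:5551517-5551536 in Ovol1 and chr2:144317743-144317762 in Ovol2, both on the minus strand.
Ovol1: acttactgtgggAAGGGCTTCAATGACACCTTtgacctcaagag
Ovol2: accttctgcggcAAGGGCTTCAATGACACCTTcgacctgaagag
The Ets factors shared 14 bases, at chr2:103266857-103266870 in Ehf and chr1:135254366-135254379 in Elf3, both on the minus strand.
Ehf: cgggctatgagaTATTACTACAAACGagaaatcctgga
Elf3: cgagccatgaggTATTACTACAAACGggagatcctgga
Identity over aligned coding bases was 66.5% for the Esrp pair, 71.8% for the Grhl pair, 68.9% for the Ovol pair and 67.5% for Ehf and Elf3. No window of 50 bases in the transcripts of a gene was found in its relative.

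Sequence shared with overlapping genes was larger than that shared between relatives. Of the 50-base windows in its transcripts, Ovol1 shared 19.6% with Gm31166 and AC126029.1, Ovol2 shared 12.2% with 1700108N11Rik, Esrp2 shared 5.3% with Nfatc3 and 1810019D21Rik, and Elf3 shared 5.28% with Gm26642. The other 5 genes shared at most 1.23%. Whether the counting used the strand of the reads is not given in the sources used here, so the values of Ovol1, Ovol2, Esrp2 and Elf3 are uncertain to that extent.

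Total counts were 34988358 to 44645514 in replicates 1 and 2 and 68581024 to 76329473 in replicates 3 and 4. Levels are given in CPM (counts scaled to the library total). All 12 epithelial markers were detected in each group. They summed to 4470 to 8110 CPM with hairpin 1, 4710 to 7910 CPM with hairpin 2 and 4040 to 8540 CPM in control organoids. Detection alone cannot test the epithelial label, because all 8 lymphocyte markers were also detected in each group. In control organoids these lymphocyte markers summed to only 0.0461 to 7.25 CPM. Fibroblast markers were also present, so the libraries did not hold epithelium alone. They summed to 391 to 5300 CPM with hairpin 1, 725 to 9270 CPM with hairpin 2 and 399 to 4290 CPM in control organoids. With hairpin 2 in replicates 3 and 4, the fibroblast sum reached 9270 CPM, while the epithelial sum was at most 7010 CPM. In replicates 1 and 2 of all groups, fibroblast sums were at most 2540 CPM and epithelial sums at least 6370 CPM. After group means were subtracted, libraries of different groups were more alike with the same replicate number than with different numbers. The comparisons were therefore made within replicate numbers, by edgeR's quasi-likelihood test with the number in the model. Benjamini-Hochberg adjustment ran over all 17025 genes (threshold 0.05). In bulk libraries, fewer cells of a type and less RNA per cell cannot be told apart.

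The targeted gene was lower in every knockdown library. Cldn7 stood at 31.1, 30.0, 44.2 and 29.0 CPM with hairpin 1 and at 27.4, 25.4, 34.7 and 26.1 CPM with hairpin 2, against 144, 136, 186 and 101 CPM in control replicates 1 to 4. Its log2 fold change was -2.07 for hairpin 1 and -2.30 for hairpin 2, with edgeR adjusted p-values of 2.63e-06 and 9.79e-07. The difference between the hairpins, -0.23 ± 0.081 on the log2 scale (SE), did not pass the threshold (edgeR adjusted p = 0.149).

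Levels of the 9 genes were first compared with each other per kilobase of exon. In control organoids Ehf stood highest, at 51.1 ± 9.84 CPM per kilobase (SD, n = 4), followed by Esrp1 at 36.7 ± 3.03 and Esrp2 at 29.2 ± 5.44 CPM per kilobase. The grainyhead factors came next, with Grhl1 at 18.1 ± 5.88 and Grhl2 at 12.4 ± 1.39 CPM per kilobase. Elf3 had 8.44 ± 1.06, Klf5 had 6.52 ± 2.04, Ovol2 had 3.41 ± 0.263 and Ovol1 had 3.19 ± 1.24 CPM per kilobase. Neighbours in this order were separated without overlap of the 4 control libraries only at Grhl2 over Elf3 and at Klf5 over Ovol2; the other 6 neighbouring pairs overlapped in range.

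**Figure D1:**
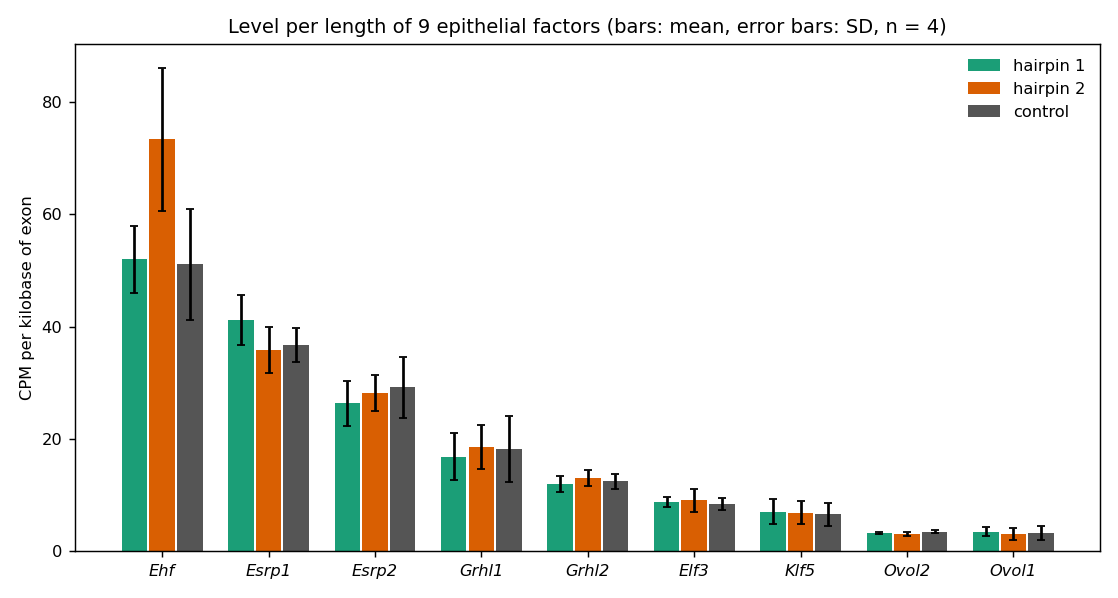
Mean level of each gene per kilobase of exon (CPM per kilobase) with hairpin 1, hairpin 2 and the control; error bars are the SD over 4 libraries. Genes run from Ehf, at 52.0 with hairpin 1, 73.4 with hairpin 2 and 51.1 in the control, down to the Ovol genes. For Ehf the error bar of hairpin 2 lies above that of hairpin 1 and narrowly overlaps that of the control. For each other gene the error bars of the groups overlap.

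Across both hairpins together, 1 of the 9 genes passed the threshold, Ehf, which was higher, beside 1.79% of all genes tested. The median log2 fold change over the 9 genes was 0.036, against -0.0024 over all genes. With hairpin 1 none of the 9 passed edgeR's test, beside 0.728% of all genes; 1, Esrp1, had an unadjusted p under 0.05, beside 12.8% of all genes, and DESeq2 also called 0. With hairpin 2 again 1 passed, Ehf, beside 5.76% of all genes. No gene of the 9 had all 4 libraries of either hairpin outside the range of the control, a separation seen in 1.19% of all genes for hairpin 1 and 2.1% for hairpin 2.

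**Figure D2:**
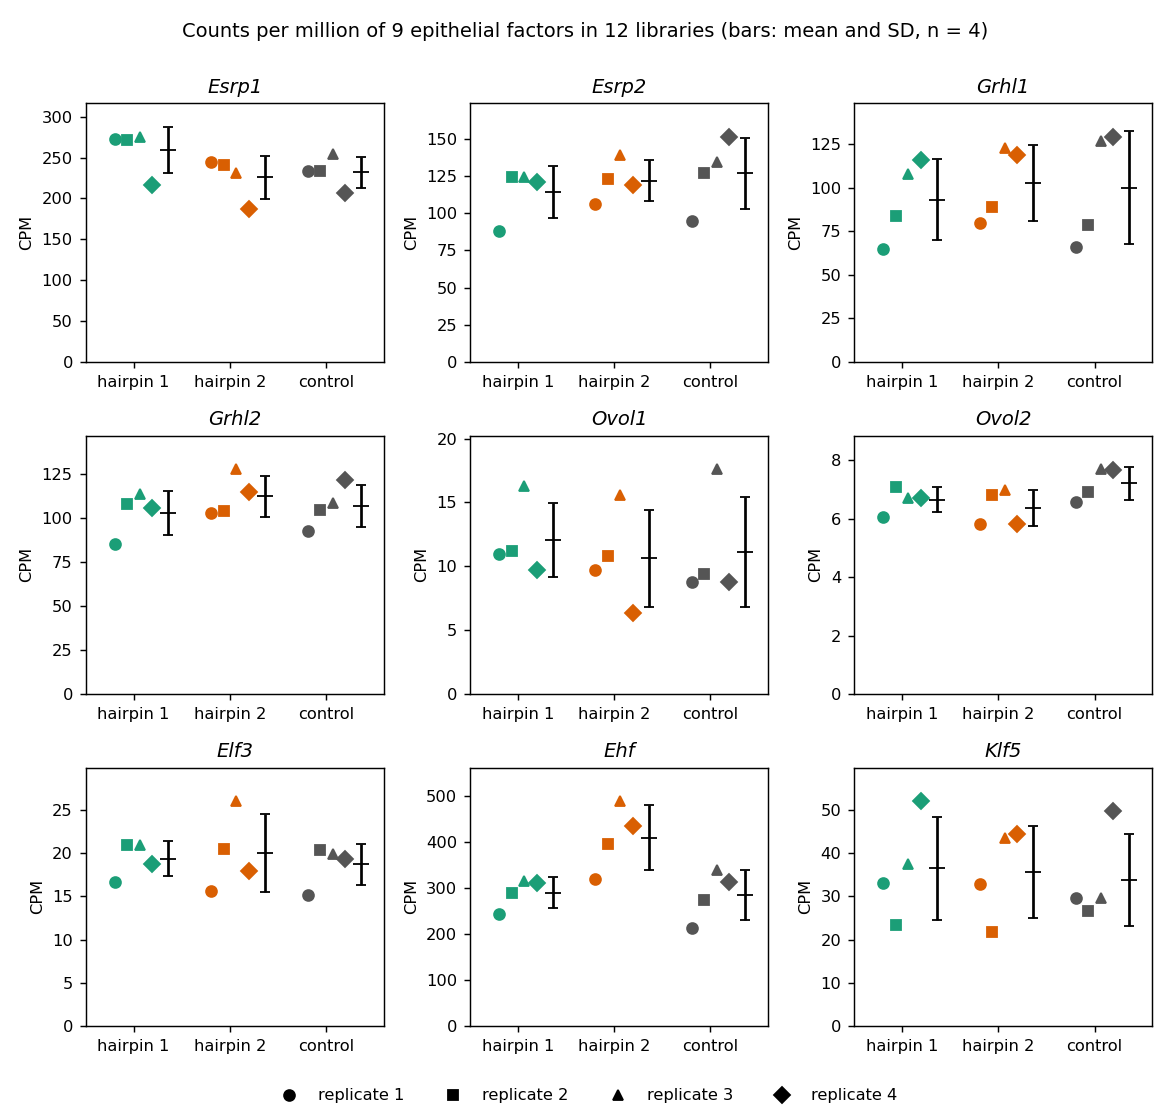
Level (CPM) of each of the 9 genes in every library, by group, with hairpin 1 and hairpin 2 left of the control and the mean with its SD (n = 4). Ehf reaches 320 to 488 CPM with hairpin 2 and 213 to 339 CPM in control libraries.

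The 2 splicing regulators did not pass the test with either hairpin. Esrp1 (NCBI Gene 207920; GRCm38 chr4:11331933-11386783, minus strand) had 273, 272, 275 and 217 CPM with hairpin 1, 244, 241, 231 and 187 CPM with hairpin 2, and 233, 233, 254 and 207 CPM in control replicates 1 to 4. Each hairpin 1 library was above the control of the same number, by 0.066 to 0.23 on the log2 scale, whereas hairpin 2 libraries were above it in replicates 1 and 2 and below it in replicates 3 and 4. The log2 fold change was 0.16 ± 0.053 for hairpin 1 (SE, edgeR adjusted p = 0.243, 95% interval 0.039 to 0.27) and -0.042 ± 0.053 for hairpin 2 (adjusted p = 0.686, interval -0.16 to 0.076). Between the hairpins, Esrp1 was lower with hairpin 2 in 4 of 4 pairs, with a log2 difference of -0.20 ± 0.053 (SE, interval -0.32 to -0.081), and this missed the threshold by edgeR (adjusted p = 0.072) and passed it by DESeq2 (adjusted p = 0.00606). Without control replicate 4 the edgeR value also passed (adjusted p = 0.0445).

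Esrp2 (NCBI Gene 77411; chr8:106130319-106136974, minus strand), the paralogue of Esrp1, had 87.7, 124, 124 and 121 CPM with hairpin 1, 106, 123, 139 and 119 CPM with hairpin 2, and 94.6, 127, 134 and 151 CPM in control replicates 1 to 4. All 4 hairpin 1 libraries lay below the control of the same number, by 0.041 to 0.32 log2 units, and the ranges of the groups overlapped. The log2 fold change was -0.15 ± 0.076 for hairpin 1 (SE, edgeR adjusted p = 0.459, interval -0.32 to 0.018) and -0.045 ± 0.076 for hairpin 2 (adjusted p = 0.775, interval -0.21 to 0.12). Gene counts do not show which exons were used, so these values describe the amount of Esrp messenger RNA and not splicing.

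Neither grainyhead factor passed the test with either hairpin. Grhl1 (NCBI Gene 195733; chr12:24572283-24617391, plus strand) had 64.9, 83.6, 108 and 116 CPM with hairpin 1, 79.6, 88.7, 123 and 119 CPM with hairpin 2, and 65.8, 78.5, 127 and 129 CPM in control replicates 1 to 4. Replicates 3 and 4 were high in every group and replicates 1 and 2 were low, with the groups overlapping throughout. Its log2 fold change was -0.084 ± 0.07 for hairpin 1 (SE, edgeR adjusted p = 0.679, interval -0.24 to 0.072) and 0.069 ± 0.07 for hairpin 2 (adjusted p = 0.608, interval -0.087 to 0.22). Grhl2 (NCBI Gene 252973; chr15:37233036-37363569, plus strand), the main grainyhead factor of mouse epithelial junctions, had 85.3, 108, 114 and 106 CPM with hairpin 1, 103, 104, 128 and 115 CPM with hairpin 2, and 92.8, 105, 109 and 122 CPM in control replicates 1 to 4. With each hairpin, 2 of the 4 pairs were higher than the control and the other 2 lower. The log2 fold change of Grhl2 was -0.057 ± 0.066 (SE, edgeR adjusted p = 0.786, interval -0.20 to 0.09) with hairpin 1 and 0.07 ± 0.066 (adjusted p = 0.581, interval -0.077 to 0.22) with hairpin 2.

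The Ovol genes were the 2 lowest of the 9. Ovol1 (NCBI Gene 18426; chr19:5549136-5560646, minus strand), a zinc-finger transcriptional repressor that promotes epithelial differentiation, had 11.0, 11.2, 16.3 and 9.68 CPM with hairpin 1, 9.75, 10.8, 15.6 and 6.38 CPM with hairpin 2, and 8.75, 9.42, 17.6 and 8.77 CPM in control replicates 1 to 4. Replicate 3 was the highest in each of the 3 groups. Its log2 fold change was 0.14 ± 0.12 with hairpin 1 (SE, edgeR adjusted p = 0.691, interval -0.13 to 0.42) and -0.073 ± 0.12 with hairpin 2 (adjusted p = 0.778, interval -0.35 to 0.20). Ovol2 (NCBI Gene 107586; chr2:144305175-144332146, minus strand) had 6.06, 7.08, 6.72 and 6.72 CPM with hairpin 1, 5.83, 6.8, 6.99 and 5.81 CPM with hairpin 2, and 6.56, 6.92, 7.69 and 7.65 CPM in control replicates 1 to 4. The 4 hairpin 2 libraries were each below the control of the same number, by 0.025 to 0.39 log2 units, and the ranges overlapped. For Ovol2 the log2 fold change was -0.12 ± 0.11 with hairpin 1 (SE, edgeR adjusted p = 0.708, interval -0.36 to 0.12) and -0.18 ± 0.11 with hairpin 2 (adjusted p = 0.345, interval -0.42 to 0.054).

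Ehf (NCBI Gene 13661; chr2:103263433-103303278, minus strand), an Ets factor of glandular epithelium, was the gene of the 9 that differed. It had 243, 290, 316 and 310 CPM with hairpin 1, 320, 395, 488 and 434 CPM with hairpin 2, and 213, 273, 339 and 314 CPM in control replicates 1 to 4. Every hairpin 2 library was above the hairpin 1 and the control library of its number, while hairpin 1 lay above the control in replicates 1 and 2 and below it in replicates 3 and 4. Because levels also differed between replicate numbers, the 320 to 488 CPM of hairpin 2 overlapped the 213 to 339 CPM of the control. With hairpin 2, Ehf rose by 0.53 ± 0.057 on the log2 scale (SE, 1.44-fold, edgeR adjusted p = 0.00201, interval 0.40 to 0.65), with 0.59, 0.53, 0.53 and 0.47 in the 4 pairs. With hairpin 1 the log2 fold change was 0.04 ± 0.057 (1.03-fold, adjusted p = 0.837, interval -0.086 to 0.17), with 0.19, 0.086, -0.099 and -0.019 in the 4 pairs.

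The difference between the hairpins was itself past the threshold for Ehf. Hairpin 2 minus hairpin 1 was 0.49 ± 0.057 on the log2 scale (SE, 1.40-fold, edgeR adjusted p = 0.00228, interval 0.36 to 0.61), with 0.40, 0.45, 0.63 and 0.49 in the 4 pairs. In this comparison 1 of the 9 genes passed, beside 3.44% of all genes. The mean over both hairpins, 0.28 ± 0.05 (1.22-fold, edgeR adjusted p = 0.0247), therefore joins a hairpin with a rise and a hairpin without a detected one, and the call over both was lost on leaving out any of 7 libraries (all 4 control libraries and hairpin 1 replicates 1, 2 and 4, adjusted p up to 0.111). The calls for hairpin 2 and for the difference held on leaving out each of the 12 libraries, with adjusted p at most 0.0117 and 0.0179. Within replicates 1 and 2 alone the hairpin 2 effect was 0.56 (adjusted p = 0.0312), and within replicates 3 and 4 alone it was 0.49 (adjusted p = 0.0843); the difference between hairpins was 0.41 (0.0612) and 0.54 (0.134) in these 2 subsets. In a model without the replicate number, the hairpin 2 effect was 0.52 with an adjusted p of 1 and an unadjusted p of 0.0101.

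**Figure D3:**
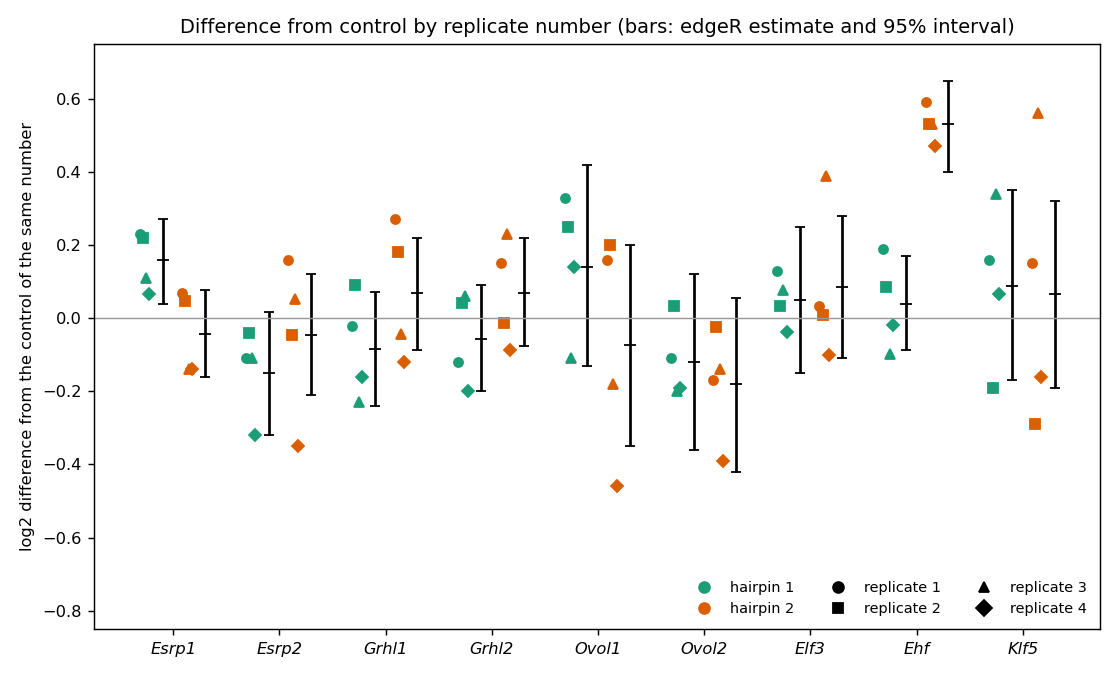
Log2 difference from the control library of the same replicate number for each of the 9 genes, with hairpin 1 left of hairpin 2. Each set has 1 point per replicate, and the black bar beside it is centred close to the mean of the 4 pairs. For Ehf the 4 hairpin 2 points lie at 0.47 to 0.59 and the 4 hairpin 1 points at -0.099 to 0.19, while the points of most other genes lie on both sides of 0.

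Elf3 (NCBI Gene 13710; chr1:135253575-135258568, minus strand), the other epithelium-specific Ets factor of the group, did not pass the test with either hairpin. It had 16.7, 20.9, 21 and 18.8 CPM with hairpin 1, 15.6, 20.5, 26 and 18.0 CPM with hairpin 2, and 15.2, 20.4, 19.9 and 19.3 CPM in control replicates 1 to 4. The groups overlapped, with hairpin 2 replicate 3 the highest of the 12 libraries. Its log2 fold change was 0.049 ± 0.089 with hairpin 1 (SE, edgeR adjusted p = 0.875, interval -0.15 to 0.25) and 0.085 ± 0.089 with hairpin 2 (adjusted p = 0.614, interval -0.11 to 0.28). The interval for hairpin 2 lies below that of Ehf.

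Klf5 (NCBI Gene 12224; chr14:99298691-99315036, plus strand), a zinc-finger factor of proliferating epithelium, had 33.1, 23.3, 37.6 and 52.0 CPM with hairpin 1, 32.8, 21.7, 43.6 and 44.4 CPM with hairpin 2, and 29.6, 26.6, 29.6 and 49.7 CPM in control replicates 1 to 4. The lowest library of each group was replicate 2 and the highest was replicate 4. The log2 fold change of Klf5 was 0.089 ± 0.12 with hairpin 1 (SE, edgeR adjusted p = 0.815, interval -0.17 to 0.35) and 0.065 ± 0.12 with hairpin 2 (adjusted p = 0.787, interval -0.19 to 0.32). Its pairs spread more widely than those of Ehf, at -0.29 to 0.56 for hairpin 2.

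Direction within pairs was counted for all 9 genes. With hairpin 1, Esrp1 was higher and Esrp2 lower in 4 of 4 pairs, so that 2 of the 9 genes had 1 direction throughout, beside 24.4% of all genes. With hairpin 2, Ehf was higher and Ovol2 lower in 4 of 4 pairs, beside 25.4% of all genes. Between the hairpins, Grhl1 and Ehf were higher and Esrp1 and Ovol1 lower with hairpin 2 in 4 of 4 pairs, which is 4 of 9, beside 30.5% of all genes. None of the 9 had 1 direction in all 8 pairs of the 2 hairpins with the control, beside 8.02% of all genes. The 2 hairpins share the control libraries.

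Replicate number moved several of these genes more than the hairpins did. Averaged over groups, Grhl1 was higher in replicates 3 and 4 than in replicates 1 and 2 by 0.65 on the log2 scale, at 108 to 129 CPM against 64.9 to 88.7 CPM with no overlap. Klf5 differed by 0.61, Ehf by 0.35, Esrp2 by 0.26, Grhl2 by 0.22, Ovol1 by 0.20, Elf3 by 0.17, Ovol2 by 0.08 and Esrp1 by -0.13. The median of the 9 was 0.22, against 0.038 over all genes. With the 2 hairpins taken as 1 group, their effect did not differ detectably between replicates 3 and 4 and replicates 1 and 2. The edgeR test of that difference called 0 of the 9 genes and 0% of all genes. At an unadjusted p under 0.05 there were 0 of the 9 and 708 of 17025 genes. A difference between the hairpins counts as spread in this test. For Ehf that difference was 0.49, so the test could decide little for this gene. For Ehf the difference of the hairpin effect was -0.12 ± 0.29 (SE, adjusted p = 1), and for Grhl1, the smallest p of the 9, it was -0.27 ± 0.13 (adjusted p = 1).

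Covariation among the 9 genes was described over the 12 libraries after each replicate mean was subtracted from log2 CPM, as Pearson correlations with no test; the points share libraries and depth, and subtraction of the means leaves them not independent. Of 36 gene pairs, 23 were positive, 8 were over 0.5, and the median was 0.12. Esrp2 went with both grainyhead factors (0.73 with Grhl1 and 0.74 with Grhl2), which went with each other at 0.58. Esrp1 went instead with Ovol1 (0.76) and against Ehf (-0.50), Grhl2 (-0.46) and its own paralogue Esrp2 (-0.27). Elf3 and Klf5 went together at 0.76, and Ehf stood at 0.58 with Grhl1, 0.39 with Elf3 and -0.56 with Ovol2. Against Cldn7 itself, Ovol2 had the most positive value, 0.69, and Ehf the most negative, -0.63. Group differences were not subtracted, and Cldn7 was lower in every knockdown library, so these 2 values restate in part the contrast with the control. In that contrast, over both hairpins, Ovol2 did not pass the test (edgeR adjusted p = 0.441).

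**Figure D4:**
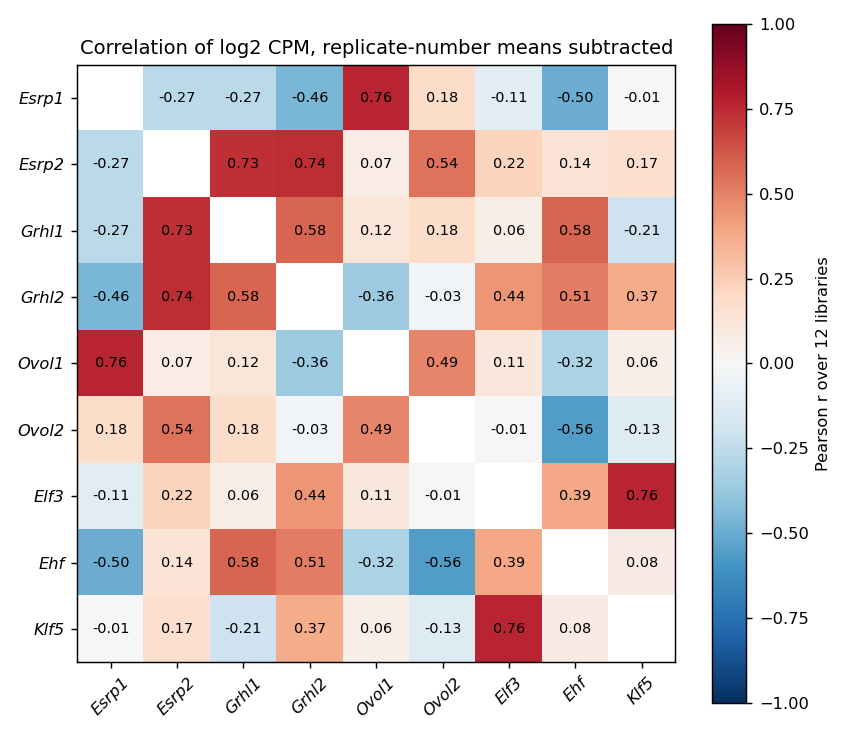
Pearson correlation of log2 CPM between each 2 of the 9 genes over the 12 libraries, after each replicate mean was subtracted; colour gives the correlation from -1 to 1. The values run from -0.56 for Ovol2 with Ehf to 0.76 for Esrp1 with Ovol1 and for Elf3 with Klf5.

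The genes closest to each of the 9 were sought by the same correlation among 13118 genes with a mean of at least 2 CPM. For Ehf they were Slco1a5 (0.99), an organic anion transporter, and Fbln5 (0.97), an elastic fibre protein. For both hairpins together Slco1a5 had a log2 fold change of 0.25 (edgeR adjusted p = 0.0629) and Fbln5 of 0.64 (adjusted p = 0.0234). The correlation kept group differences, so genes chosen by it share those of Ehf, and these 2 fold changes are no separate result. The closest to Esrp1 were Cmtm6 (0.98) and Yipf2 (0.97), and to Esrp2 Fuz (0.97) and Rap1gap2 (0.96). For Grhl1 they were Adat1 (0.92) and Pank4 (0.92), and for Grhl2 Madd (0.96) and Dtx3 (0.96). Ovol1 had Trmt10b (0.93) and Trim12a (0.92), and Ovol2 had Mif4gd (0.97) and Aktip (0.95). Plce1 and Slc6a6 (0.96 each) were closest to Elf3, and A730056A06Rik (0.97) and Epb41l4a (0.96) to Klf5. With 12 libraries and so many genes searched, values of this size describe these libraries alone, and none of the 9 had another of the 9 among its closest 2.

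Further lists of genes around the 9 are described by their counts of calls. Over both hairpins 17.2% of all genes had an unadjusted p under 0.05, and 1.79% passed the threshold. With hairpin 2, 5.76% of all genes passed it. Of 16 tested paralogues and related epithelial transcription factors, 0 passed edgeR's test over both hairpins (3 at an unadjusted p under 0.05; DESeq2 called 1). With hairpin 2 the 1 call was Trp63, the p63 factor of basal epithelium, which rose by 0.56 ± 0.12 (SE, edgeR adjusted p = 0.027); over both hairpins its log2 fold change was 0.47 (adjusted p = 0.0587). The median of the list over both hairpins was 0.021, against -0.0024 over all genes. Elf2 and Elf5, Ets relatives of Ehf, had 0.11 (adjusted p = 0.234) and -0.11 (adjusted p = 0.26).

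Among 16 other regulators of epithelial or mesenchymal exons, 0 passed over both hairpins by edgeR (6 at an unadjusted p under 0.05; DESeq2 called 1 higher and 1 lower), with a median log2 fold change of 0.061. Rbms3, an RNA-binding protein, rose with hairpin 2 by 0.84 ± 0.19 (SE, edgeR adjusted p = 0.0291) and was the 1 call there. Over both hairpins Celf2 had -0.23 (adjusted p = 0.0605), Rbms3 0.64 (0.0832) and Rbfox2, which favours mesenchymal exons, 0.21 (0.135).

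Of 12 genes whose exons Esrp proteins are known to choose, 0 passed over both hairpins by edgeR (4 at an unadjusted p under 0.05; DESeq2 called 1 higher and 2 lower), and the median was -0.034. Fgfr2, whose epithelial isoform depends on Esrp proteins, rose with hairpin 2 by 0.77 ± 0.15 (SE, edgeR adjusted p = 0.0176), the 1 call there; its difference between hairpins, 0.62, missed the threshold (adjusted p = 0.0501). Over both hairpins Fgfr2 had 0.46 (adjusted p = 0.106), Fgfr1 -0.24 (0.0867) and Numb -0.27 (0.122). The counts do not separate isoforms.

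Of the 12 reported targets of Grhl factors, edgeR called genes in the downward direction, while DESeq2 called genes in both. Over both hairpins 1 fell, Epcam, an epithelial adhesion molecule, with a log2 fold change of -0.25 ± 0.053 (SE, edgeR adjusted p = 0.0485), and 0 rose by edgeR. At an unadjusted p under 0.05 there were 6, DESeq2 called 1 higher and 3 lower, and the median was -0.077. Cldn4, a tight junction claudin singled out after its value was seen, had 0.49 over both hairpins (edgeR adjusted p = 0.157). With hairpin 2, 3 fell and 0 rose: Epcam at -0.34 (adjusted p = 0.0151), the protease inhibitor Spint1 at -0.30 (0.0167) and the trafficking GTPase Rab25 at -0.35 (0.0341). With hairpin 1, 0 passed by edgeR (4 at an unadjusted p under 0.05; DESeq2 called 1 higher and 1 lower). Spint1 was also lower with hairpin 2 than with hairpin 1, at -0.25 (adjusted p = 0.0435). Over both hairpins Prss8, the protease prostasin, had -0.24 (adjusted p = 0.0623) and Spint1 -0.18 (0.101).

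Mesenchymal transcription factors were the fourth neighbouring group. Of 8 tested, 0 passed over both hairpins by edgeR (4 at an unadjusted p under 0.05; DESeq2 called 2 higher), with a median log2 fold change of 0.31. With hairpin 2, 2 rose: Prrx1 by 1.04 (edgeR adjusted p = 0.00824) and Snai2 by 0.99 (adjusted p = 0.0146). Prrx1, a homeobox factor of mesenchyme, was also higher with hairpin 2 than with hairpin 1, by 0.85 (adjusted p = 0.0232). Snai2, a zinc-finger repressor that basal mammary cells also express, had 0.69 over both hairpins (adjusted p = 0.0609), Prrx1 0.62 (0.0631) and Tcf4 0.24 (0.211).

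Several of these list calls lay near the threshold and were lost on leaving out 1 library, while the log2 fold changes kept their sign. They stayed at -0.27 to -0.22 for Epcam over both hairpins and, with hairpin 2, at 0.45 to 0.68 for Trp63, 0.70 to 0.99 for Rbms3, 0.56 to 0.91 for Fgfr2, -0.42 to -0.26 for Rab25 and 0.80 to 1.17 for Snai2. The call of Epcam over both hairpins held only without hairpin 2 replicate 2 or 3 among the 12 fits that each left out 1 library (edgeR adjusted p up to 0.167 in the other 10). Leaving out control replicate 3 ended the hairpin 2 calls of Trp63 (edgeR adjusted p = 0.0911), Rbms3 (0.0967), Fgfr2 (0.0705), Rab25 (0.082), Epcam (0.0509) and Snai2 (0.054), and leaving out hairpin 2 replicate 4 ended those of Trp63 (0.104), Rbms3 (0.108), Rab25 (0.0956), Spint1 (0.0558) and Snai2 (0.0564). Control replicate 1 was a further such library for Trp63 (0.0632), Rbms3 (0.0894), Fgfr2 (0.0607) and Rab25 (0.0772), control replicate 4 for Trp63 (0.0792) and Rbms3 (0.0888), and hairpin 2 replicate 3 for Trp63 (0.0536) and Rbms3 (0.061). Trp63 was also lost without control replicate 2 (0.0503), Rbms3 without hairpin 1 replicate 2 (0.0502), and Rab25 held only without control replicate 2 or hairpin 2 replicate 2. The call of Spint1 between the hairpins held only without control replicate 3 or 4 or hairpin 2 replicate 1. The hairpin 2 call of Prrx1 held in all 12 such fits. Its call between the hairpins was lost without hairpin 1 replicate 1 (0.0927), 2 (0.0638) or 3 (0.101) and without hairpin 2 replicate 4 (0.0574).

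Markers of other cells also moved beside Ehf and these lists. Of all genes, edgeR called 5.76% with hairpin 2, 0.728% with hairpin 1 and 3.44% between the hairpins. DESeq2 called 1856 of 17025 with hairpin 2 and 1436 between the hairpins, where 20.1% had an unadjusted edgeR p under 0.05. Some genes count in more than 1 list. Epcam and Rab25, the 2 epithelial markers that fell, are also among the Grhl targets, and Trp63 is among the related factors. Krt5 and Krt14 are both epithelial and myoepithelial markers. Of 10 myoepithelial and smooth muscle markers, 7 rose with hairpin 2, 0 with hairpin 1 (7 at an unadjusted p under 0.05; DESeq2 called 3) and 5 over both hairpins (Cdh3, Cnn1, Tagln, Myh11 and Actg2; edgeR), with summed levels of 1120 to 3370 CPM with hairpin 1, 1930 to 3490 CPM with hairpin 2 and 753 to 3400 CPM in control organoids. All 10 had a positive log2 fold change with each hairpin (median 0.64 with hairpin 1 and 1.14 with hairpin 2), and 0 passed edgeR's test between the hairpins (5 at an unadjusted p under 0.05; DESeq2 called 2). All 5 calls over both hairpins were lost without control replicate 1 or 4, and 1, Cnn1, was left without control replicate 3. With hairpin 2, 4 of the 7 were left without control replicate 1, control replicate 3 or hairpin 2 replicate 4, where Trp63, Acta2 and Actg2 were lost. Of 10 fibroblast markers, 3 rose with hairpin 2 and 0 with hairpin 1 by edgeR (3 at an unadjusted p under 0.05, 1 called by DESeq2). Log2 fold changes were positive for all 10 with hairpin 2 (median 0.64) and for 7 with hairpin 1 (median 0.14). Over both hairpins 2 rose, Col14a1 by 1.07 (edgeR adjusted p = 0.0303) and Pdgfrb by 0.47 (0.0496), and DESeq2 called 4. These 2 edgeR calls held in 5 and 4 of the 12 fits that each left out 1 library. Dcn and Vim were higher with hairpin 2 than with hairpin 1. Of 12 epithelial markers, 2 fell with hairpin 2 and 0 rose by edgeR, while DESeq2 called 2 in each direction; with hairpin 1 edgeR called 0 (3 at an unadjusted p under 0.05; DESeq2 called 1 higher). Of the macrophage, endothelial and lymphocyte markers, 0 passed over both hairpins by edgeR (0 at an unadjusted p under 0.05) or by DESeq2. Summed macrophage markers stood at 147 to 264 CPM with hairpin 1, 179 to 294 CPM with hairpin 2 and 165 to 371 CPM in control organoids; endothelial and lymphocyte markers summed to under 10 CPM in each library, and the markers C1qb and Nkg7 were at 0 counts in every library of replicates 3 and 4. The part of these other cells in the values of Ehf and of the lists was not tested.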

How the data were processed

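The authors deposited a table of raw counts, with genes in rows and 1 library in each column; the counts were not normalized. FastQC 0.74, Trimmomatic 0.39, DESeq2 1.34.0 and the build mm10 are named in the submitters' processing notes, without their roles; for the aligner, annotation, strand setting and read length, nothing was given in the sources used here. Reads of overlapping genes may therefore be assigned in ways the counts do not show. The 9 genes were matched by symbol and NCBI Gene number; 1 row that names no gene was left out of library sizes and tests.

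Genes were filtered by edgeR's filterByExpr by group (17025 kept, 8836 left out) and library scaling was by TMM (trimmed mean of M-values). Tests were edgeR 4.0.16 quasi-likelihood tests (R 4.3.3) over all 12 libraries with group and replicate number in the model. Titles supply the numbers used for pairing. Between libraries of different groups, deviations from group means correlated at 0.855 to 0.916 for the same number and at -0.807 to 0.727 for others. The nearest library of another group shared the number in 12 of 12 cases. Libraries of the same group were not compared in this way. Within groups, the chi-square of counts between libraries per degree of freedom was 51.9 or more, so none was a duplicate. SE is the log2 fold change over the root of F, and 95% intervals use edgeR's degrees of freedom. Log2 CPM had a prior count of 2. On simulated counts of 17025 genes with 100 genes changed at each size, over both hairpins, the test recovered 63% at a log2 change of 0.5 and 97% at 1.0, with 14 of 174 calls false. Only the comparison over both hairpins was simulated. These rates therefore do not cover calls for 1 hairpin or between the hairpins, such as those of Ehf.

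The members and the 11 lists (124 genes) were chosen with earlier results of these data known. Named list genes are those past the threshold and the 3 of smallest p over both hairpins; those called for 1 hairpin were added after their values were seen, and of the marker lists only called genes are named. Alternatives were DESeq2 1.42.0, its size factors, no filter, no replicate number, other samples in the fit, each library left out, and each pair of replicates alone. Coordinates and coding sequences are from GENCODE M21 on GRCm38 (mm10).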

Additional observations from a re-analysis of the deposited data

Results flagged for a closer look

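Ehf responded differently to the 2 hairpins. The effect of hairpin 2 exceeded that of hairpin 1 by 0.49 on the log2 scale (edgeR adjusted p = 0.00228), with hairpin 2 above hairpin 1 in 4 of 4 replicate numbers. Cldn7 itself stood at 25.4 to 34.7 CPM with hairpin 2 and at 29.0 to 44.2 CPM with hairpin 1. Its difference between the hairpins was -0.23 (interval -0.41 to -0.052), lower with hairpin 2 in 4 of 4 pairs. This did not pass the threshold (edgeR adjusted p = 0.149), but it passed without control replicate 4 (0.0339). Equal knockdown by the 2 hairpins is therefore not shown. Between the hairpins, 0 of 10 myoepithelial and smooth muscle markers passed edgeR's test (5 at an unadjusted p under 0.05, 2 called by DESeq2). Of all genes, 20.1% had an unadjusted edgeR p under 0.05 in this comparison, and DESeq2 called 1436 of 17025. Of 10 fibroblast markers, 2 passed. Among the 12 fits that each left out 1 library, these calls held in 8 for Dcn and 3 for Vim. The part of these markers was not tested.

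In 4 of 45 groups of 4 libraries, 1 library stood apart by Dixon's ratio of gap to range (critical value 0.829); chance gives this in about 1 group in 20. For Esrp1 with hairpin 1 it was replicate 4, at 217 CPM beside 272 to 275 (ratio 0.955). For Esrp2 with hairpin 1 it was replicate 1, at 87.7 CPM beside 121 to 124 (0.902). Ovol1 in the control stood apart in replicate 3, at 17.6 CPM beside 8.75 to 9.42 (0.925), and Klf5 in the control in replicate 4, at 49.7 CPM beside 26.6 to 29.6 (0.869). For each of these 4 genes the same replicate number was also the highest or lowest in the other 2 groups.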

How the results depend on the processing

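Ehf kept its direction over both hairpins, with hairpin 2 and between the hairpins under all alternatives run. Its calls over both hairpins were lost without the replicate block (0.27; adjusted p = 1), with the hairpins as 1 group (0.30; 0.38), in replicates 1 and 2 (0.35; 0.111) and in replicates 3 and 4 (0.21; 0.438). For hairpin 2 the call was lost without the replicate block (0.52) and in replicates 3 and 4 (0.49), and between hairpins without it (0.50) and in replicates 1 and 2 (0.41) or 3 and 4 (0.54); the cause was not tested. Accordingly 0 of the 9 genes were called in those fits, and DESeq2 called 2 between hairpins, with Esrp1 at -0.20 (-0.22 to -0.17 leaving out 1 library). Leaving out 1 library gave 0 to 1 calls among the 9 over both hairpins, 0 for hairpin 1, 1 for hairpin 2 and 1 to 2 between hairpins, and Ehf values of 0.25 to 0.31 over both hairpins, 0.50 to 0.55 for hairpin 2 and 0.44 to 0.52 between hairpins.

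Over all genes, calls over both hairpins numbered 304, against 1 with no replicate block, 1145 by DESeq2, 48 with the hairpins as 1 group, 30 in replicates 1 and 2, 5 in replicates 3 and 4, and 41 to 551 leaving out 1 library. For hairpin 1 these were 124, against 1, 607, 382 with only the groups compared, 8, 1, and 2 to 343. For hairpin 2 they were 981, against 1, 1856, 107 with only the groups compared, 85, 332, and 342 to 1084. Between hairpins they were 585, against 1, 1436, 87, 44, and 165 to 668. The test of the hairpin effect in replicates 3 and 4 against replicates 1 and 2, whose alternatives were chosen after seeing the data, called 1 gene with no filter and 0 to 1 leaving out 1 library. The model without the replicate number had a biological coefficient of variation of 0.648, against 0.141 with it.

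Signs turned only for values that had not passed the threshold. Over both hairpins these were Grhl1 (0.0057 with no filter, 0.13 in replicates 1 and 2), Klf5 (-0.048 in replicates 1 and 2), and, in replicates 3 and 4, Esrp1 (-0.03), Grhl2 (-0.0077) and Ovol1 (-0.15). With hairpin 1, replicates 1 and 2 gave Grhl1 0.039 and Klf5 -0.017, and replicates 3 and 4 gave Ehf -0.057. With hairpin 2, replicates 1 and 2 gave Esrp1 0.052, Esrp2 0.054, Ovol1 0.17 and Klf5 -0.079, and replicates 3 and 4 gave Grhl1 -0.092; between hairpins, replicates 1 and 2 gave Elf3 -0.07. Leaving out 1 library turned signs over both hairpins for Ovol1 (-0.025 to 0.11), Grhl1 (-0.053 to 0.048), Grhl2 (-0.037 to 0.068) and Klf5 (-0.043 to 0.18); with hairpin 1 for Elf3 (-0.0024 to 0.11), Klf5 (-0.025 to 0.20) and Grhl2 (-0.097 to 0.011); with hairpin 2 for Klf5 (-0.062 to 0.17), Esrp2 (-0.11 to 0.04), Elf3 (-0.018 to 0.14) and Ovol1 (-0.15 to 0.055); and between hairpins for Elf3 (-0.067 to 0.075) and Klf5 (-0.16 to 0.043). Another scaling moved the median of all genes by at most 0.0053.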
